A study of Homo sapiens with 8 samples.

Results

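The comparison set the RNA of whole U2OS cells against the RNA of their cytoplasm, in cells that had received a control siRNA. The members were the alternative splicing events that had been counted in both kinds of RNA: skipped exons (SE), retained introns (RI), exons with a choice of 5′ splice site (A5SS) or of 3′ splice site (A3SS), and pairs of mutually exclusive exons (MXE). An event of the whole-cell data and an event of the cytoplasmic data were taken as the same where gene, strand and all coordinates were equal. Of 33604 such events, 24969 averaged 10 or more reads per library in both fractions and were tested, namely 1197 RI, 17839 SE, 1385 A5SS, 2183 A3SS and 2365 MXE events. The whole-cell data held 89379 events and the cytoplasmic data 43559. Of the RI events in whole-cell RNA, 43% were matched, and every listed event held reads of both forms, so an intron without a cytoplasmic read in all libraries of its table was not among them.

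U2OS is a human osteosarcoma cell line. Both groups used here received 20 nM siRNA against EGFP, which has no target in these cells, for 48 h, and each was sequenced as biological duplicates. The whole_EGFP group was RNA of lysed whole cells and the cytoplasm_EGFP group was RNA of the supernatant left after lysis with the detergent NP-40 and a short spin. The other 4 of the 8 libraries of the series came from cells with a CHERP siRNA and enter below in 1 paragraph. Whole-cell RNA contains the cytoplasmic RNA, so a difference between the groups is a difference between a mixture and one of its parts.

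Depth and read length moved with the fraction. The whole-cell libraries held 29409956 and 35661871 reads on events and the cytoplasmic libraries 5370756 and 5547604. The length given to the skipping form was 144 nt in whole-cell RNA and 73 nt in the cytoplasm. For MXE events the medians were 255 nt and 181 nt. Reads were thus not of the same length, and the effects of fraction, read length and depth cannot be told apart. The mesenchymal genes VIM, FN1 and THY1 had reads on events in all 4 libraries, RUNX2 had 16 to 20 reads, and the epithelial gene CDH1 had 1 or 2 and KRT8 35 to 63. The other markers looked for had no matched event. The nuclear RNAs MALAT1 and NEAT1 also had none, so the purity of the cytoplasm was not checked with them. The authors report an RT-PCR check of their fractionation with tRNA, U6 small nuclear RNA and E2F8 transcripts, which is no part of these data.

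Introns are removed in the nucleus by the spliceosome, which recognises the GT that opens most introns, the AG that closes them and the bases around both. Transcripts that still hold an intron are commonly kept in the nucleus until they are spliced or degraded, while a transcript that reaches ribosomes with an early stop codon is a substrate of nonsense-mediated decay in the cytoplasm. Some introns are retained as part of a stable mRNA and are found in the cytoplasm.

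The introns that carried the comparison are shown first, with sequences from the GRCh37 assembly (the build of the data) on the strand of the gene, 5′ to 3′. The first set gives introns whose inclusion was lower in the cytoplasm. For whole introns the opening GT (or GC) and the closing AG are in capitals, and for the intron starts of 30 bases the first stop codon in the frame of the upstream exon is in capitals.
PSRC1 intron, chr1:109823669-109823758, 90 nt, no stop codon in frame: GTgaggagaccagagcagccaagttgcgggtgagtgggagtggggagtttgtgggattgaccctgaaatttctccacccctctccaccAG
TROAP intron, chr12:49724727-49724996, 270 nt, no stop codon in frame: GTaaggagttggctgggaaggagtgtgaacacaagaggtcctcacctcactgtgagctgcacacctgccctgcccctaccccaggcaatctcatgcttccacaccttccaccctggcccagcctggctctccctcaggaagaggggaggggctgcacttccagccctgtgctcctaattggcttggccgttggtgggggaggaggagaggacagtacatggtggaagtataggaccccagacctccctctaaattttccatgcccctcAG
ROBO3 intron start, of chr11:124748693-124749085: gTAGggaggtatatagtacctcactcattg
CCS intron start, of chr11:66366725-66366929: gtgagTGAccactgtggccttggcccctct
NDUFAF7 intron start, of chr2:37468935-37469777: gtaattacctttatgtggatTAAtgaaaga
IRF9 intron start, of chr14:24633344-24633822: gtacgtggcatttcTGActttctcctgtgc
The second set gives coding introns whose inclusion was higher in the cytoplasm, both the first intron of their gene and both with a stop codon in frame.
IMP4 intron, chr2:131100509-131100658, 150 nt: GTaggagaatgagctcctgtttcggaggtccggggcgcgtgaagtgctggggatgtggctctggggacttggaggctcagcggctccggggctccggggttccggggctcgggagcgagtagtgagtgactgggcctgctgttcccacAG
MRPL52 intron, chr14:23299150-23299261, 112 nt: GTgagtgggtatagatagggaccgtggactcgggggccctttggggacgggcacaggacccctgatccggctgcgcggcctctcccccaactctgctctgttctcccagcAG
The third set gives introns of high inclusion in both fractions, each without a stop codon in frame.
NKIRAS2 intron, chr17:40174491-40174582, 92 nt: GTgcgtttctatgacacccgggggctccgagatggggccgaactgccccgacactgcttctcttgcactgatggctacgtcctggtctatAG
C2orf49 intron, chr2:105959432-105959557, 126 nt, opening with GC: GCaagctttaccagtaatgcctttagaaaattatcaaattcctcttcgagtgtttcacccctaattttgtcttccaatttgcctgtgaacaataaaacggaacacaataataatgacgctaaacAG

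Retained introns were lower in the cytoplasm far more often than higher. The inclusion level is the length-corrected share of reads on the form that holds the intron. Inclusion was lower in the cytoplasm for 400 of 1197 RI events (33.4%), in 326 genes, and higher for 42 (3.51%), in 39 genes, at an adjusted p under 0.05 in a quasi-binomial F test with the dispersion moderated by limma. The median inclusion of the lower events was 10.2% in whole-cell RNA and 1.29% in the cytoplasm, and 178 of the 400 were under 1% in the cytoplasm. The higher events had medians of 4.79% and 34.0%. Over all RI events tested the medians were 8.63% and 2.67%, with a median difference in log odds (natural log, cytoplasm minus whole cell) of -1.08. Among the 559 RI events averaging 50 or more reads per library in each fraction, 459 had a log odds difference below 0, called or not. The same test on this set alone called 239 lower.

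That median shift was part of the count. When each event was set against the median event of its length class, 73 RI events were lower and 109 higher. Without the length correction 221 were lower and 62 higher, and a limma test on log2 odds gave 312 and 36. Without the first cytoplasmic library 181 RI events were lower and without the second 161, while 417 and 462 were lower without a whole-cell library.

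**Figure D1:**
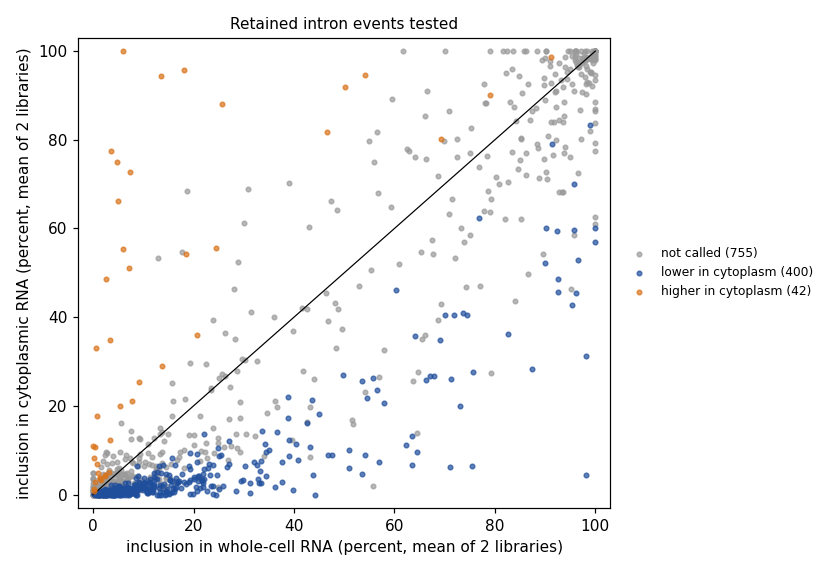
Inclusion level of each of the 1197 retained intron events, in percent and as the mean of 2 libraries, in whole-cell RNA (x axis) and cytoplasmic RNA (y axis), with the line of equal levels; colours mark the 400 lower, 42 higher and 755 events not called. Most lower events lie near the bottom, with a median of 1.29% in the cytoplasm.

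Falls and rises were named by size among called events that averaged 20 or more reads per library in each fraction, and only where the libraries of the fractions did not overlap, so the separation of these events was set by their choice. The largest fall in inclusion level among such introns belonged to UFD1L, a subunit of the complex that hands ubiquitinated proteins to the p97 ATPase. Its last intron, of 4057 nt, was included at 98.4% and 97.8% in the whole-cell libraries and at 29.8% and 32.7% in the cytoplasm (log odds difference -4.65 ± 1.16 (standard error), adjusted p = 0.00706 in the quasi-binomial F test). The cytoplasmic values rest on 50 and 57 reads, and without either cytoplasmic library the adjusted p was 0.202 or 0.196, and against the median of its length class it was 0.0933. Intron 23 of ROBO3, an axon guidance receptor, stood at 59.6% and 67.3% in whole-cell RNA and at 7.3% and 6.1% in the cytoplasm. This intron opens with a stop codon at its second base. Intron 5 of NDUFAF7, an assembly factor of respiratory complex I, stood at 68.2% and 60.7% against 7.4% and 11.7%.

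Coding introns without a stop codon in frame were among the named falls. Intron 13 of TROAP, a protein of the mitotic spindle, was included at 65.3% and 61.5% in whole-cell RNA and at 10.9% and 15.6% in the cytoplasm (-2.40 ± 0.39, adjusted p = 2.64e-09). Intron 5 of PSRC1, a microtubule-binding protein, was included at 55.2% and 51.9% on 24 and 33 reads in whole-cell RNA, and at 3.9% and 5.6% on 121 and 112 reads in the cytoplasm (-3.11 ± 0.49, adjusted p = 3.4e-10). Both introns are multiples of 3 nt and are held in an annotated protein-coding transcript.

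The other introns named by the size of their fall had a stop codon in frame or lay outside the coding part. ACAD8, an acyl-CoA dehydrogenase of valine breakdown, fell from 54.5% and 59.4% to 11.1% and 3.4%, with an adjusted p of 0.116 without the second cytoplasmic library. CCS, the copper chaperone of superoxide dismutase, fell from 49.6% and 58.6% to 9.8% and 8.0%, and against the median of its length class its adjusted p was 0.0636. IRF9, the DNA-binding subunit of an interferon-activated transcription factor, fell from 39.9% and 62.1% to 7.0% and 4.8%.

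Untranslated introns fell as well. The last intron of CTDNEP1, a phosphatase of the nuclear envelope, lies in the 3′ UTR and fell from 82.6% and 68.5% to 32.0% and 23.1% (adjusted p = 0.0856 against the median of its length class). Intron 2 of RPL17, a protein of the large ribosomal subunit, lies in the 5′ UTR and fell from 90.3% and 94.8% to 57.9% and 39.5% (adjusted p = 0.0669 without the second cytoplasmic library). RPL17 has 48 annotated processed pseudogenes by name, and the part of reads from such copies was not tested. For PML, the scaffold of nuclear bodies, with 100% and 74.6% against 24.3% and 32.3%, the call was lost without either cytoplasmic library (adjusted p = 0.231 and 0.133), without the length correction (0.101) and against the median of its length class (0.471).

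**Figure D2:**
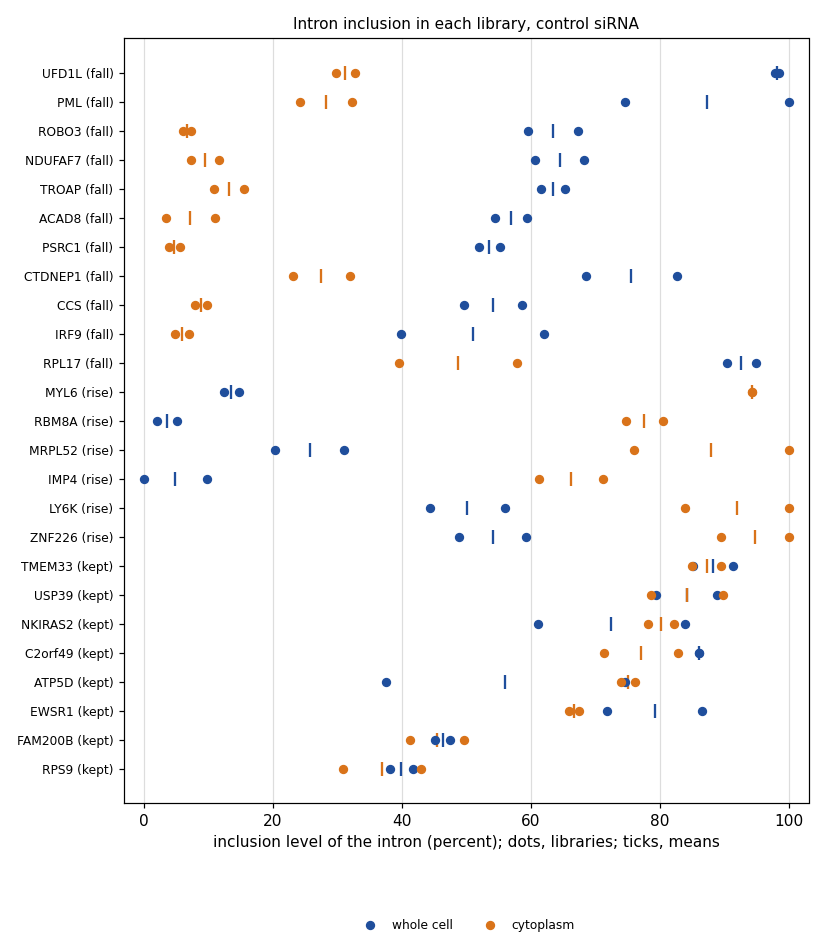
Inclusion level in percent (x axis) of the named introns in each library, blue for whole-cell and orange for cytoplasmic RNA, with ticks at the mean of 2 libraries; rows are grouped as falls, rises and kept introns. For MYL6 both cytoplasmic points lie at 94.2% and 94.3% and both whole-cell points at 14.8% and 12.4%.

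The 6 named introns that were higher in the cytoplasm had mean levels of 3.5% to 54.1% in whole-cell RNA and 66.2% to 94.7% in the cytoplasm. MYL6, a myosin light chain, had an intron of 352 nt at 14.8% and 12.4% in whole-cell RNA and at 94.2% and 94.3% in the cytoplasm (4.65 ± 0.33, adjusted p = 1.04e-80). The reads behind these levels were 190 and 247 in whole-cell RNA and 1431 and 1571 in the cytoplasm, although the cytoplasmic libraries were shallower. RBM8A, the Y14 subunit of the exon junction complex, had an intron of 134 nt at 2.0% and 5.1% against 80.4% and 74.7%. This intron was not placed in an annotated transcript, neither as an intron nor inside an exon.

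The first introns of IMP4, a protein of the small subunit processome, and MRPL52, a mitochondrial ribosomal protein, were also higher. IMP4 stood at 9.8% and 0.0% on 116 and 8 reads in whole-cell RNA and at 71.1% and 61.3% on 17 and 35 reads in the cytoplasm. MRPL52 stood at 31.0% and 20.4% against 75.9% and 100%, and without the second cytoplasmic library its adjusted p was 0.0595. LY6K, a GPI-anchored surface protein, and ZNF226, a zinc finger protein, lost the call without either cytoplasmic library.

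Genes with a named processed pseudogene were more frequent among the introns that were higher. They made up 38.1% of the higher RI events, 17.2% of the lower and 14.8% of those not called. MYL6 has 5 such copies, and RBM8A, IMP4 and MRPL52 have none by name, with copies under another name not looked for. Without genes that have a named copy the test called 326 of 1000 RI events lower and 26 higher, beside 400 and 42 of 1197 with them. The part of shared reads in the rises was not tested.

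Some introns had high inclusion in both fractions. Of the events not called, 58 averaged 50 or more reads per library in each fraction and had a standard error of the log odds difference under 0.5, and 7 of these were over 50% in the cytoplasm. The first intron of TMEM33, a membrane protein of the endoplasmic reticulum, stood at 85.1% and 91.3% in whole-cell RNA and at 89.5% and 84.9% in the cytoplasm (-0.03 ± 0.40). The last intron of USP39, a protein of the tri-snRNP, stood at 88.9% and 79.4% against 89.8% and 78.6% (0.00 ± 0.43). In both genes the libraries of the fractions overlapped.

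NKIRAS2, an inhibitor of NF-kappaB signalling, had a coding intron without a stop at 61.1% and 83.8% in whole-cell RNA and at 82.2% and 78.1% in the cytoplasm (0.42 ± 0.45). That of C2orf49 stood at 86.1% in both whole-cell libraries and at 71.3% and 82.8% in the cytoplasm (-0.61 ± 0.39). EWSR1, an RNA-binding protein of the FET family, stood at 86.5% and 71.8% against 65.9% and 67.4% (-0.75 ± 0.45), and its intron opens with a stop codon at its second base. For C2orf49 and EWSR1 both whole-cell libraries stood above both cytoplasmic libraries. Without the second whole-cell library the log odds difference of EWSR1 was -1.14, and without the first that of ATP5D was 1.6. These values do not show equal inclusion, since the standard error of 0.26 to 0.45 over the 8 kept introns leaves room for a change. Against the median of their length class, ATP5D (1.98) and FAM200B (1.31) were called higher, as were USP39 and NKIRAS2 at adjusted p = 0.0455 and 0.0488.

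Lower introns were longer and less GC-rich than the rest, as a description with no test. Their median length was 389 nt, against 248 nt for the higher and 209 nt for those not called. Median GC was 51.2%, 59.0% and 57.3%. The log odds scores of the 5′ splice site were alike, with medians of 7.41, 7.28 and 7.27, and those of the 3′ splice site were 7.69, 7.33 and 7.17. The length of the intron also entered the correction for read length, and the median shift went from -0.85 in the shortest length class (median 92 nt) to -1.42 in the longest (median 1524 nt).

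The place of the intron differed between the directions. Introns placed in an annotated transcript were 396 of the lower events, 38 of the higher and 735 of those not called. Among these, the first intron made up 0.758%, 31.6% and 4.49%. Introns between coding exons made up 91.4%, 71.1% and 84.1%. Of these coding introns, 91.4% of 362 lower, 96.3% of 27 higher and 76.7% of 618 not called held a stop codon in frame. Intron length also differed between the classes, and its part in these shares was not tested.

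Introns of the minor spliceosome, recognised by a U12-type 5′ site, were 13 of the tested RI events. Of these 4 were lower, 0 higher and 9 not called, beside 33.4% lower over all RI events. GNL3, a nucleolar GTPase, had such an intron at 10.5% and 10.1% in whole-cell RNA and at 1.3% and 1.2% in the cytoplasm, and EDC4, a scaffold of mRNA decapping, one at 49.3% and 50.1% against 25.3% and 28.7%. SMYD2 and NOL11 held the remaining pair.

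Among the gene lists, the snoRNA host genes stood at one end. These genes carry small nucleolar RNAs in their introns and release them when the introns are spliced and trimmed. All 11 of their tested RI events were lower in the cytoplasm, in GAS5, SNHG1 and TAF1D, with a median log odds difference of -3.54 beside -1.08 over all RI events. Reads that lie inside an intron count toward its inclusion. Reads of released snoRNAs or excised introns were not separated from those of transcripts that retain the intron. GAS5 had 7 events of 7 lower, some of which overlap each other. Its intron 9 stood at 21.2% and 26.5% in whole-cell RNA and at 0.1% in both cytoplasmic libraries, on 255 and 269 reads (-5.34 ± 0.65, adjusted p = 7.24e-95). Its intron 8 fell from 23.6% and 22.8% to 7.7% and 6.2%, the smallest of the 7 differences in log odds.

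SNHG1 had an intron at 13.0% and 13.1% in whole-cell RNA and at 0.0% in both cytoplasmic libraries. TAF1D, a subunit of the RNA polymerase I factor SL1, had an intron at 15.2% and 15.1% against 0.1% and 0.3%. Abundance of the genes was also lower in the cytoplasm, with differences of -1.43 ± 0.12 (standard error) for GAS5, -1.21 ± 0.14 for SNHG1 and -1.62 ± 0.12 for TAF1D on the log2(abundance + 0.01) scale. HMGN2, a nucleosome-binding protein, had 4 RI events of 4 lower and CDK5RAP3 4 of 5, again with overlaps, and both were singled out after their values were seen.

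The lists of RNA processing genes hold few RI events, and their counts stand beside 33.4% lower and 3.51% higher over all RI events. Of 7 RI events in genes of RS-domain and LUC7-like proteins of nuclear speckles, 5 were lower and 0 higher. RBM25, a splicing regulator, had an intron of 3441 nt at 15.1% and 15.7% against 2.4% and 2.1% in the cytoplasm. Of the 4 RI events of SR protein genes, all in SRSF5, 1 was lower, at 40.7% and 40.2% against 12.5% and 10.0%, and against the median of its length class it was not called (-0.26, adjusted p = 0.234). Among hnRNP genes 5 of 12 RI events were lower and 2 higher. HNRNPH1 had an intron at 20.5% and 28.4% in whole-cell RNA and at 0.0% in both cytoplasmic libraries, on 140 and 125 reads, while an intron of HNRNPM was higher, at 7.2% and 8.3% against 20.1% and 22.3%.

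Translation factor genes had 10 of 17 RI events lower and 1 higher, and cytosolic ribosomal protein genes 11 of 38 lower and 9 higher. RPL13 fell from 4.9% and 5.2% to 0.3% in both cytoplasmic libraries, and RPL10 rose from 0.4% and 0.3% to 11.1% and 10.2%. The RPL10 event had 15987 and 20772 reads in whole-cell RNA and 407 and 466 in the cytoplasm. RPL10 has 19 processed pseudogenes by name and RPL13 has 7, and the part of reads from such copies was not tested. Core spliceosome genes had 3 of 10 lower, export factors 2 of 6, RBM genes 3 of 11 with 1 higher, ZNF genes 3 of 16 with 2 higher, and genes of the endoplasmic reticulum 0 of 3. Both events of CLK3, the event of OGT and that of BIRC5 were lower, as were 2 of 3 in DNA damage genes (BAX and FANCI). Against the median of the length class the calls of OGT (0.08, adjusted p = 0.913), BIRC5 (0.694), BAX (0.337), FANCI (0.912) and 1 of the CLK3 events (0.0846) were lost, and those of OGT (0.234) and FANCI (0.117) were also lost without the length correction. Nonsense-mediated decay factors had 0 lower and 1 higher (RBM8A) of 4.

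Skipped exons were called at close to equal counts in both directions with the length correction, and the counts changed with it and with the test. Inclusion was lower in the cytoplasm for 198 of 17839 SE events (1.11%), in 168 genes, and higher for 211 (1.18%), in 154 genes. The lower exons had median inclusion levels of 53.6% in whole-cell RNA and 16.8% in the cytoplasm, and the higher ones 17.7% and 72.5%. Without the length correction 102 were lower and 420 higher. Limma on log2 odds called 2 lower and 7 higher, and a dispersion rule that counts groups with reads on 1 form alone called 0 and 0, with 878 lower and 657 higher at an unadjusted p under 0.05 in the quasi-binomial F test. Without the first or the second cytoplasmic library 53 and 53 were lower and 64 and 58 higher. None of the 8 named falls passed limma.

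The named exon falls were in genes of several roles. MDC1, a mediator of the DNA damage checkpoint, had an exon of 792 nt at 90.5% in both whole-cell libraries and at 26.8% and 18.8% in the cytoplasm, with an adjusted p of 0.189 without the second cytoplasmic library. PXN, the focal adhesion protein paxillin, had an exon of 279 nt at 88.6% and 98.6% against 26.2% and 35.4%. HNRNPH1 had an exon of 179 nt, not a multiple of 3, at 88.6% and 85.9% against 30.9% and 32.0%, with an adjusted p of 0.175 without the first cytoplasmic library.

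The exon of HNRNPH1, chr5:179045146-179045324, is given because its loss shifts the reading frame.
HNRNPH1 exon: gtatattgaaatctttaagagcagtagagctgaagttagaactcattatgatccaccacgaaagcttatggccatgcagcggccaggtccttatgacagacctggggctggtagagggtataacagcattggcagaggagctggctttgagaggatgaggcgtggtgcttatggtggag
MRPS18C, a mitochondrial ribosomal protein, had an exon of 84 nt at 87.9% and 85.5% in whole-cell RNA and at 31.7% and 37.4% in the cytoplasm (-2.51 ± 0.28, adjusted p = 1.11e-15, and 0.124 by limma). INO80E, a subunit of the INO80 chromatin remodeller, had the largest fall among the named exons, with 87.9% and 100% against 19.1% and 15.1% over an annotated exon of 3446 nt. ZHX1, HIRIP3 and MTRF1L completed the falls, with mean levels of 73.8% to 87.8% in whole-cell RNA and 20.4% to 24.7% in the cytoplasm, and each lost its call without at least 1 of the cytoplasmic libraries.

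**Figure D3:**
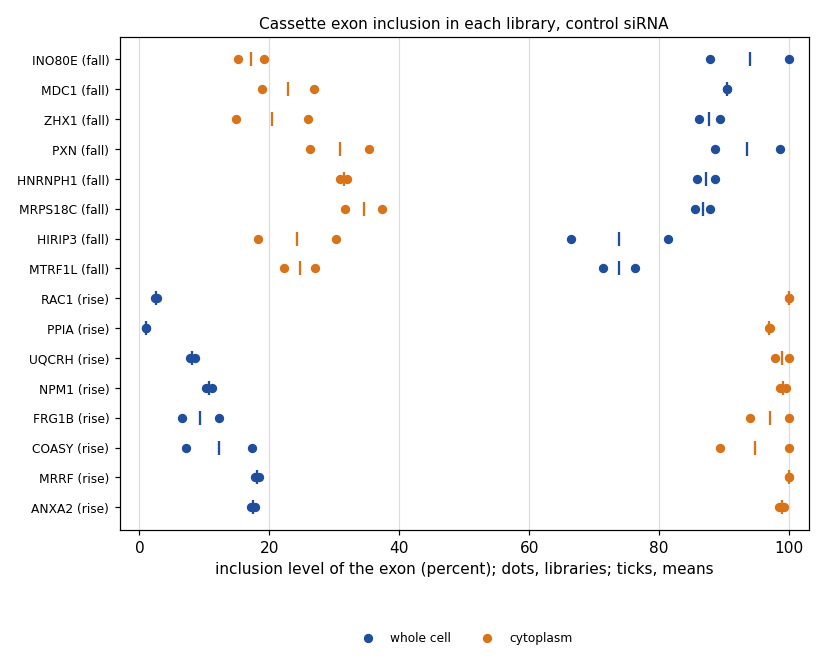
Inclusion level in percent (x axis) of the named skipped exons in each library, blue for whole-cell and orange for cytoplasmic RNA, with ticks at the mean of 2 libraries. The 8 falls have whole-cell means of 73.8% or more, and the 8 rises have cytoplasmic means of 94.7% or more.

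Several of the exon rises came with a loss of reads on the event. PPIA, the peptidyl-prolyl isomerase cyclophilin A, had an exon at 1.0% in both whole-cell libraries and at 96.9% and 97.0% in the cytoplasm, on 13064 and 14338 reads in whole-cell RNA but 99 and 104 in the cytoplasm. RAC1, a small GTPase of the actin cytoskeleton, had its exon of 57 nt at 2.4% and 2.7% against 100% in both, on 1361 and 1892 reads against 29 and 16. ANXA2, a calcium-dependent membrane-binding protein, had 13256 and 16473 reads against 276 and 250, with inclusion at 17.1% and 17.8% against 98.5% and 99.2%. NPM1, the nucleolar protein nucleophosmin, showed the opposite in reads, with 29 and 43 against 1114 and 1089, at 10.2% and 11.1% against 99.5% and 98.6%.

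PPIA has 89 processed pseudogenes by name, NPM1 49, RAC1 9 and ANXA2 3. Genes with such copies made up 41.7% of the higher SE events, 28.8% of the lower and 19.1% of those not called. Without these genes 128 of 14358 SE events were lower and 115 higher, beside 198 and 211 of 17839 with them. Reads of near-identical copies are uncertain, and the part of such copies in these rises was not tested. The rises of COASY, the enzyme of the last steps of coenzyme A synthesis (17.3% and 7.2% against 100% and 89.4%), and FRG1B (12.2% and 6.5% against 94.0% and 100%) were in genes without a copy by name, and did not pass limma (adjusted p = 0.122 and 0.116). Copies under another name were not looked for, and the FRG1B exon matches no annotated exon of that gene.

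SR protein genes, which carry exons whose inclusion makes the transcript a substrate of nonsense-mediated decay, had 8 of 35 SE events lower and 0 higher, with a median of -1.06 beside -0.33 over all SE events. SRSF7 had such an exon, of 449 nt, at 9.1% and 11.1% in whole-cell RNA and at 0.5% and 0.3% in the cytoplasm (-3.32 ± 0.33, adjusted p = 3.64e-55, and 0.117 by limma). SRSF6 stood at 30.8% and 67.9% against 10.9% and 13.0%, SRSF2 at 9.0% and 5.4% against 2.0% and 0.7%, and SRSF4 at 10.2% and 12.2% against 0.7% and 0.0%. The call of SRSF4 was lost without either cytoplasmic library (adjusted p = 0.209 and 0.345). In all 4 genes the form with the exon is annotated as a nonsense-mediated decay transcript and the form without it as protein-coding. UQCRH, with the same annotation of its forms, went the other way. Its exon of 148 nt stood at 8.5% and 7.7% against 100% and 97.8%, on 1981 and 2683 reads against 156 and 137. UQCRH has 4 processed pseudogenes by name, and its limma adjusted p was 0.0625. A nonsense-mediated decay form with the exon, and no protein-coding one, was annotated for 19.3% of lower exons, 12.3% of higher and 9.06% of those not called.

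The same annotation applied to ACIN1 and SRRM2, proteins of nuclear speckles. ACIN1 had an exon at 8.3% and 8.4% against 0.0% and 0.1%, and SRRM2 one at 22.9% and 19.7% against 4.8% and 1.4% (adjusted p = 0.331 without the second cytoplasmic library). Speckle genes had 4 of 92 SE events lower and 0 higher. SNRNP70, a protein of the U1 snRNP, had an exon of 1474 nt of this kind at 4.6% and 3.0% against 0.9% and 0.6%. None of these exons passed limma.

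Mitosis genes had 0 of 73 SE events lower and 8 higher, beside 1.11% and 1.18% over all SE events, and a median log odds difference of -0.15 beside -0.33. The 8 higher events all lay in AURKB, AURKA and BIRC5, among 25 genes with tested SE events. AURKB, a kinase of the chromosomal passenger complex, had an exon of 49 nt at 51.7% and 37.7% in whole-cell RNA and at 97.7% and 100% in the cytoplasm. AURKA, a centrosomal kinase, had one in its 5′ UTR at 47.6% and 42.2% against 90.9% and 95.3%, and BIRC5, the inhibitor of apoptosis survivin, one at 9.8% and 10.7% against 21.6% and 30.6%. In limma the adjusted p was 0.117, 0.129 and 0.248, and without the second cytoplasmic library it was 0.152 for AURKA and 0.612 for BIRC5.

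In the remaining lists the share of lower SE events was 5.22% for hnRNP genes (6 lower and 5 higher of 115), 7.14% for cytosolic ribosomal proteins (11 and 11 of 154) and 3.85% for snoRNA host genes (2 and 4 of 52), beside 1.11% over all SE events. Translation factors had 3 lower and 4 higher of 157 and core spliceosome genes 2 and 4 of 110. ZNF genes had 3 lower of 212, and the genes of the endoplasmic reticulum 1 and 1 of 92. RBM genes and nonsense-mediated decay factors had 1 lower each, of 56 and 37. CLK and DYRK kinases, O-GlcNAc enzymes, export factors, DNA damage genes and nuclear noncoding RNAs had 0 of 10, 12, 57, 46 and 15 events called in the quasi-binomial test. U2AF1, the small subunit of the factor that binds the 3′ splice site, was higher at an exon of 67 nt, with 45.4% and 46.9% against 61.0% and 60.4%, and lost this call without either cytoplasmic library (adjusted p = 0.804 and 0.674).

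Exons that were lower were longer and less GC-rich than those that were higher, as a description. Median length was 175 nt for the lower, 122 nt for the higher and 113 nt for those not called, and median GC was 46.5%, 54.0% and 48.1%.

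The balance of directions at alternative splice sites depended on the scale. Inclusion of the longer form was lower for 55 of 1385 A5SS events (3.97%) and higher for 30 (2.17%), and lower for 135 of 2183 A3SS events (6.18%) and higher for 27 (1.24%). Against the median event of the length class, 35 A5SS events were lower and 39 higher, and 62 and 61 A3SS events. Without the length correction the counts were 30 and 51 for A5SS and 81 and 41 for A3SS. The extra stretch of the longer form had a median length of 190 nt for the lower A5SS events and 66 nt for those not called, and of 151 nt and 36 nt for A3SS events. Limma called 5 and 2 A5SS events and 14 and 2 A3SS events, and without either cytoplasmic library the calls of both directions were 28 to 32 for A5SS and 69 to 75 for A3SS.

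SF1, the branch point binding protein of early spliceosomes, used an upstream 3′ splice site that adds 637 nt at 69.7% and 70.6% in whole-cell RNA and at 16.0% and 18.2% in the cytoplasm (-2.41 ± 0.27, adjusted p = 4.34e-18, and 0.0549 by limma). SPAG5, a spindle protein also called astrin, had a stretch of 592 nt at 82.8% and 93.8% against 38.1% and 35.4%. NUSAP1, a spindle protein, had one of 42 nt that was higher, at 13.2% and 11.5% against 44.6% and 51.6%. BZW1 had an A5SS stretch of 263 nt at 90.0% and 89.5% against 44.9% and 46.0%. By limma the adjusted p was 0.0722 for SPAG5 and NUSAP1 and 0.0533 for BZW1.

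Ribosomal protein genes held the largest of the named splice site falls. RPL27A stood at 99.5% and 99.4% on 9040 and 9788 reads against 13.8% and 16.3% on 50 and 59, and RPLP0 at 99.1% in both libraries on 6735 and 7718 reads against 37.9% and 29.9% on 41 and 30. RPL27A has 5 processed pseudogenes by name and RPLP0 12. Such genes made up 46.7% of the higher and 29.1% of the lower A5SS events, and 40.7% and 23.7% of the A3SS events, beside 17.2% and 16.9% of those not called.

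Mutually exclusive exon events were lower for the first form in 446 of 2365 (18.9%) and higher in 479 (20.3%). In 96.0% of the lower and 95.8% of the higher events both exons lie in 1 annotated transcript, so the forms are not exclusive there, beside 87.5% of those not called. GAS5 had such an event at 6.7% and 5.7% in whole-cell RNA and at 85.6% and 88.0% in the cytoplasm. MORF4L1, a chromodomain protein, had one at 98.4% and 97.8% against 0.0% and 1.6%.

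**Figure D4:**
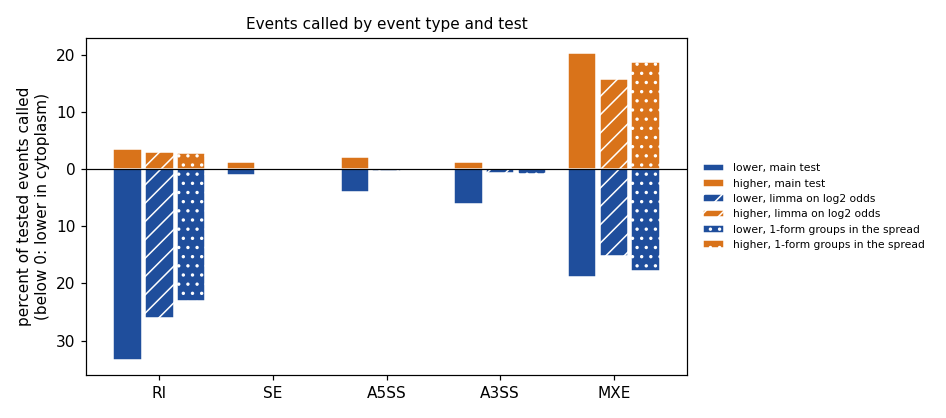
Percent of tested events called in each event type (y axis, higher in the cytoplasm above 0 and lower below), for the quasi-binomial test, limma on log2 odds and the dispersion rule that counts groups with reads on 1 form alone. RI and MXE events keep calls in all 3, while SE events go from 198 and 211 to 2 and 7 and to 0 and 0.

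Gene abundance set the background of the events. It was the length-corrected sum of reads over the SE, A5SS and A3SS events of a gene, scaled by median ratios, and with this scale a change is relative to the median gene. Of 7752 genes, 2207 were lower in the cytoplasm (28.5%) and 2052 higher (26.5%) by limma. Under scaling by total abundance the split was 1780 and 2455, with the median gene moved by 0.11. Less RNA per cell and fewer cells that hold it cannot be told apart in these bulk samples. Median exon GC was 42.8% for the lower genes, 57.1% for the higher and 48.1% for those not called, and its part in the abundance differences was not tested.

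Among called genes with at least 50 reads in each whole-cell library, the lowest by ratio were RPL29, RPL21, RPL15, EIF4E, RPS10, RPSA, PHB and RPL22. RPL21, a ribosomal protein with 131 processed pseudogenes by name, had 17869 and 22756 reads in whole-cell RNA and 9 and 5 in the cytoplasm, and EIF4E, the cap-binding factor, had 271 and 355 against 0 and 1. The part of the pseudogenes in these ratios was not tested. The highest under the same minimum were INO80E (4.33 ± 0.27 on the log2 scale), ZYX, a focal adhesion protein (3.55 ± 0.20), FAM195B, PDLIM7, C1orf86, VEGFB, RBM38 and PPDPF, all at 3.13 or more. RBM42 stood higher, at 4.69 ± 0.36, but had 79 and 38 reads in whole-cell RNA.

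By list, and beside 28.5% lower and 26.5% higher over all genes, the genes of speckle proteins were lower for 14 and higher for 3 of 24 tested, translation factors for 15 and 3 of 30, and export factors for 10 and 4 of 17. XPO1, the main nuclear export receptor for proteins, was lower, with a log2 difference of -1.50 ± 0.12. Of the nuclear noncoding RNAs, 4 were tested (JPX, CRNDE, PVT1 and TUG1), 0 were lower and PVT1 was higher (1.25 ± 0.15, log2). Mitosis genes were lower for 12 and higher for 6 of 25, and SR protein genes for 5 and 4 of 11.

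The libraries of CHERP siRNA cells share no sample with those above and gave the same contrast of fractions under another condition. Read length again differed between the fractions, and so did depth. Whole-cell libraries held 35664568 and 34071875 reads on events and cytoplasmic libraries 6580099 and 5476148. Shared calls therefore cannot tell the fraction from read length or depth. There 418 RI events were lower and 34 higher. Of the lower events, 311 were called in both conditions, which was 77.8% of the control calls and 74.4% of the CHERP siRNA calls, and of the higher events 28 were, or 66.7% and 82.4%. For SE events 123 lower calls were shared (62.1% of control and 44.9% of CHERP siRNA calls) and 152 higher calls (72.0% and 56.7%). Over all events tested in control cells, 33.4% of RI events were lower and 3.51% higher, and 1.11% and 1.18% of SE events. The difference between the siRNAs was not tested here.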

How the data were processed

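RNA-seq libraries (TruSeq Stranded mRNA, NextSeq) of whole_EGFP and cytoplasm_EGFP were compared, 2 biological replicates each. Per the methods the authors mapped reads to hg19 with STAR 2.5.2b, quantified genes with RSEM 1.2.25 and GENCODE annotation, and counted splicing events with rMATS (version not given in the sources used here). The deposited tables, 1 for each event type and fraction, hold unnormalized counts of reads on the inclusion and skipping forms, with both libraries joined in 1 cell, and the effective form lengths. The authors' columns of p-values, FDR and inclusion differences between siRNAs were not used. No measurement is normalized in these tables.

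Inclusion was (inclusion reads / inclusion length) over the sum of this and (skipping reads / skipping length). Events that averaged 10 or more reads per library in both fractions were fitted with a quasi-binomial model with a length offset. The dispersion was moderated over events of a type by limma 3.58.1 (R 4.3.3) with a floor of 1, log odds differences are given ± standard error, and p-values were Benjamini-Hochberg adjusted within the type (threshold 0.05). The prior had infinite degrees of freedom except for MXE (16.9), so an event's own library spread had no weight. Groups with reads on 1 form alone were left out of the spread. This rule was chosen after the calls of a first version had been seen, because on simulated data the first version recovered few or no changed events. Gene abundance was tested with limma on log2(abundance + 0.01) for genes averaging 20 or more reads per library in whole-cell RNA. Scripts were tested on simulated data.

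Named events were the largest falls and rises averaging 20 or more reads per library in each fraction, with levels that did not overlap, 1 per gene (12 and 6 RI, 8 and 8 SE, 4 and 4 of the others), the 8 kept introns with the highest cytoplasmic inclusion, the 8 lowest and highest genes with at least 50 reads in each whole-cell library, and up to 4 called members of each gene list. 1 of the 12 intron falls is not reported here. Members and lists were chosen with earlier results of these data known. Libraries are named in the order of the cells, which carry no replicate number. Libraries of 1 group differed by more than counting error (chi-square per gene of 16.2 for whole_EGFP and 2.83 for cytoplasm_EGFP). Pseudogenes were matched by symbol in the annotation. Alternatives covered the read minimum, length correction, centring, test, dispersion, scaling and left-out libraries. Errors of log odds differences rest on a spread between these libraries that was pooled over the events of a type. Outside MXE they do not reflect the spread of the event itself. SRSF6, for example, had an error of 0.17 with 30.8% and 67.9% in whole-cell RNA. No error covers more than these libraries.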

Additional observations from a re-analysis of the deposited data

How the results depend on the processing

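Counts of calls depended on the read minimum, on the test and on the cytoplasmic libraries. A higher read minimum also left fewer events to test. With an average of 50 or more reads per library, 239 of 559 RI events were lower and 26 higher, beside 400 and 42 of 1197. Of 8974 SE events 119 were lower and 102 higher, beside 198 and 211 of 17839. For A5SS 38 of 572 events were called and for A3SS 77 of 897, beside 85 of 1385 and 162 of 2183. Without the length correction, 221 RI events were lower, and 102 SE events were lower and 420 higher. Centring on the median event by length class gave 73 RI events lower and 109 higher, and a minimum difference of 10 points left 171 lower RI events. Limma called 2 lower and 7 higher SE events, 7 A5SS and 16 A3SS events. Counting groups with reads on 1 form alone in the spread, the rule of the first version, gave 0 and 0 SE, 3 A5SS and 24 A3SS events, 277 lower and 33 higher RI events, and 865 MXE events. That rule, a dispersion for each fraction and leaving out genes with a named pseudogene were added after seeing the data. The last left 26 higher of 1000 RI, 128 lower and 115 higher of 14358 SE, and 55 of 1131 A5SS events.

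Leaving out 1 library gave 161 to 462 lower and 18 to 49 higher RI events, 53 to 298 and 58 to 294 SE events, 28 to 149 A5SS, 69 to 145 A3SS and 584 to 1049 MXE events. It gave 1772 to 2383 lower and 1583 to 2219 higher genes. Each lowest count came without a cytoplasmic library.

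Among the introns named or listed, centring ended 23 calls and turned the sign of 6 lower events, in SRRM1 (0.39), RBM3 (0.91, called higher at adjusted p = 4.32e-07), OGT (0.08), CHTOP (0.69, called higher at 0.00104), EEF1D (0.27) and ZNF655 (0.19), and no length correction that of RBM3 (0.13). The cause was not tested. No paired analysis was possible because the cells of the tables carry no replicate number. The median event had 41.5 to 81 reads per library in the cytoplasm, by type, and the smallest detectable change was not measured.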
